A study of Mus musculus with 48 samples.

Results

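Igkv14-130, Igkv17-127, Igkv14-126 and Igkv11-125 are 4 neighbouring Vκ gene segments near the end of the mouse Igκ locus that lies farthest from the Jκ segments. Their joints to Jκ1 were counted as all junctions within 200 bp of the site at which each gene is cut, which is 67741506 for Igkv14-130, 67811654 for Igkv17-127, 67846637 for Igkv14-126 and 67864047 for Igkv11-125 on chromosome 6 of mm9. These are 4 of 137 Vκ break sites found in the libraries, and they held 178375 of the 7265223 junctions that fell between 67.5 and 70.66 Mb of chromosome 6, here called the Vκ region. Igkv11-125 had 99095 of them, Igkv14-130 had 51274, Igkv14-126 had 16681 and Igkv17-127 had 11325. The break sites were placed by the measured pileups of signal end junctions in STI-571-treated WT libraries, so the members were chosen by those values, and all signal end bait values of WT cells are given below as description without a test. The 200-bp limit cut through little signal. From 150 to 200 bp there were 33, 0, 34 and 68 junctions in the order above, and from 200 to 250 bp there were 2, 25, 11 and 63.

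A Vκ segment and a Jκ segment are joined during B cell development by V(D)J recombination. The RAG recombinase cuts each between its last coding base and a recombination signal sequence, made of a heptamer, a spacer and a nonamer, and leaves a hairpin-sealed coding end and a blunt signal end on either side. Coding ends are normally joined to coding ends, with small losses and additions of bases, and signal ends to signal ends without loss, both by nonhomologous end joining, which starts with binding of the Ku70/Ku80 heterodimer. Palindromic bases at a coding joint are left where a hairpin is opened off its tip. Without Ku, ends are joined by alternative end joining, which is known for resected ends and for microhomology, a few bases that both ends share. A coding end joined to a signal end is a hybrid joint.

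Junctions were measured by HTGTS-JoinT-seq, which amplifies genomic DNA from one fixed end, the bait, and reads the sequence it has become joined to, the prey. Cells were vAbl-ProB cells, progenitor B cells transformed by the Abelson virus kinase, WT or Ku70-/-. The study describes the Ku70 deletion as made with Cas9 in a line reported earlier, and 1 cell line of each genotype is compared, so that loss of Ku70 cannot be told apart from other differences between the lines. Each genotype was either cycling or arrested with STI-571, an Abl kinase inhibitor given at 3 µM for 96 h, which lets RAG act. Arrested cells had STI-571 with DMSO (called STI-571 alone below), STI-571 with L67 at 5 µM or STI-571 with L82-G17 at 25 µM. L67 and L82-G17 are both inhibitors of DNA ligases. The labels of the cycling and inhibitor samples name no DMSO. Each sample was read from the Jκ1 coding end or from the Jκ1 signal end, which gave 16 groups of 3 libraries. The study says that its experiments were repeated independently, but the labels do not tie the 3 libraries of a group to separate cultures, so that p-values measure only the spread between these libraries. The files hold junctions only, and cell markers could not be checked.

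Libraries of STI-571-treated cells held 116039 to 385847 junctions, and those of cycling cells 8294 to 32108. Reads carried no molecular identifiers, so that copies of 1 joint made by PCR cannot be told from separate joints. Replicate 1 of the Ku70-/- STI-571 libraries stood apart for each bait. It is not among the libraries listed in the study's supplementary tables, and held 927 distinct junctions in the Vκ region from the coding end bait against 12470 and 13386 in the other two, and 965 against 10973 and 13710 from the signal end bait. It is called the unlisted library below. In its coding end version Igkv17-127 and Igkv14-126 had 0 junctions, Igkv14-130 had 1826 at 15 distinct junctions, and 93.2% of the 2378 junctions of Igkv11-125 were copies of 1 junction. Each result that rests on it is given with and without it. A gene with 0 junctions there has no measured share. Fits of shares and of end kind with all libraries then use the added counts alone, which stand for equal classes.

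Igkv14-130, Igkv14-126 and Igkv11-125 carry closely related signal sequences, those of Igkv14-130 and Igkv11-125 being the same, and Igkv17-127 carries another. The 20 coding bases before the break (lower case), heptamer (capitals), 12-base spacer (lower case) and nonamer (capitals) are shown to set the members side by side, with the 23-base-spacer signal of Igkj1, their partner, written 5′ to 3′ from its coding side. The bases are those of NCBIM37, the assembly of mm9, on the plus strand for the Vκ genes, at chr6:67741486-67741533, chr6:67811634-67811681, chr6:67846617-67846664 and chr6:67864027-67864074, and on the minus strand for Igkj1, at chr6:70672517-70672575.
Igkv14-130: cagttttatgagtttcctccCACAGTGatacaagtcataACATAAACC
Igkv17-127: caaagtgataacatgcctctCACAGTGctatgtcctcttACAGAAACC
Igkv14-126: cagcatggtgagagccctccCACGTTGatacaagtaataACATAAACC
Igkv11-125: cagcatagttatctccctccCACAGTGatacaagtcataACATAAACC
Igkj1: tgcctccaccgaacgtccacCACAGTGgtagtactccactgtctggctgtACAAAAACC

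Igkv14-130 and Igkv11-125 had the same heptamer, spacer and nonamer, and no other of the 137 sites had these bases. Igkv14-126 differed from Igkv14-130 by A4G and G5T in the heptamer, counted from its first base, and by C9A in the spacer. Its heptamer CACGTTG was at 1 of the 137 sites, whereas CACAGTG was at 111, or 81.0%. Igkv17-127 shared the heptamer CACAGTG but differed at 9 of the 12 spacer bases and by T4G in the nonamer, which was at 2 of 137 sites. The nonamer ACATAAACC of the other 3 was at 33, or 24.1%. All 4 genes lie on the plus strand, so that joining to Jκ1 deletes the DNA between, and each break lies directly 3′ of the last exon in the GENCODE annotation. The 4 sites span 122.541 kb and lie 2.81 to 2.93 Mb from Igkj1 (chr6:70672556-70672593). The other break sites between them were Igkv9-129, with 30568 junctions, and a pair of unannotated sites with 79 and 3586.

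Igkv11-125 was the most used of the 4 genes from the coding end bait, and the order was the same in each STI-571-treated WT library. In WT cells with STI-571 alone it had 12.3, 11.7 and 12.8 junctions per 1000 Vκ region junctions in the 3 libraries, a mean of 12.3 ± 0.567 (SD, n = 3). Igkv14-130 had 5.16, 6.02 and 5.83, a mean of 5.67 ± 0.450. Igkv14-126 had 2.06, 1.91 and 2.04, and Igkv17-127 had 0.988, 1.20 and 0.835. No neighbours in this order overlapped between libraries. Among the 137 sites, ranked from the most used, Igkv11-125 was 33rd, Igkv14-130 57th, Igkv14-126 87th and Igkv17-127 95th. The ratio of Igkv11-125 to Igkv14-130, whose signal sequences are the same, was 1.94 to 2.39, and 1.23 to 1.73 with distinct junctions counted once.

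From the signal end bait the first 2 genes of this order changed places in WT cells with STI-571 alone. In cycling WT cells the means were 1.36 per 1000 for Igkv14-130 and 1.82 for Igkv11-125. However, the ratio of Igkv11-125 to Igkv14-130 was 0.833 and 1 in the cycling libraries that held both. It could not be formed in the remaining one, where Igkv14-130 had no junctions. These libraries held only 34, 50 and 135 junctions of the 4 genes, so that no order is read from them. Igkv14-130 had 10.6, 11.6 and 10.4 junctions per 1000 in the 3 WT libraries with STI-571 alone, and Igkv11-125 had 6.49, 5.71 and 7.78, so that the ratio of Igkv11-125 to Igkv14-130 was 0.491 to 0.749. With distinct junctions counted once it was 0.963, 0.950 and 0.636. The order of junction counts was the same with L67, where the ratio was 0.562 to 0.840. It did not hold with L82-G17, where it was 0.904 to 1.46 and above 1 in 2 of 3 libraries. In Ku70-/- cells Igkv11-125 led from both baits in the listed libraries with STI-571 alone: the ratio was 3.01 and 4.24 for signal end libraries and 3.85 and 5.19 for coding end libraries. In the unlisted library it was 1.30 from the coding end bait and could not be formed from the signal end bait, where Igkv14-130 had 0 junctions and Igkv14-126 led, with 8.92 per 1000 against 5.90 of Igkv11-125. Igkv14-126 stayed below Igkv14-130 in each WT library of STI-571-treated cells, at 0.304 to 0.536 of its usage from the coding end bait and 0.132 to 0.646 from the signal end bait.

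**Figure D1:**
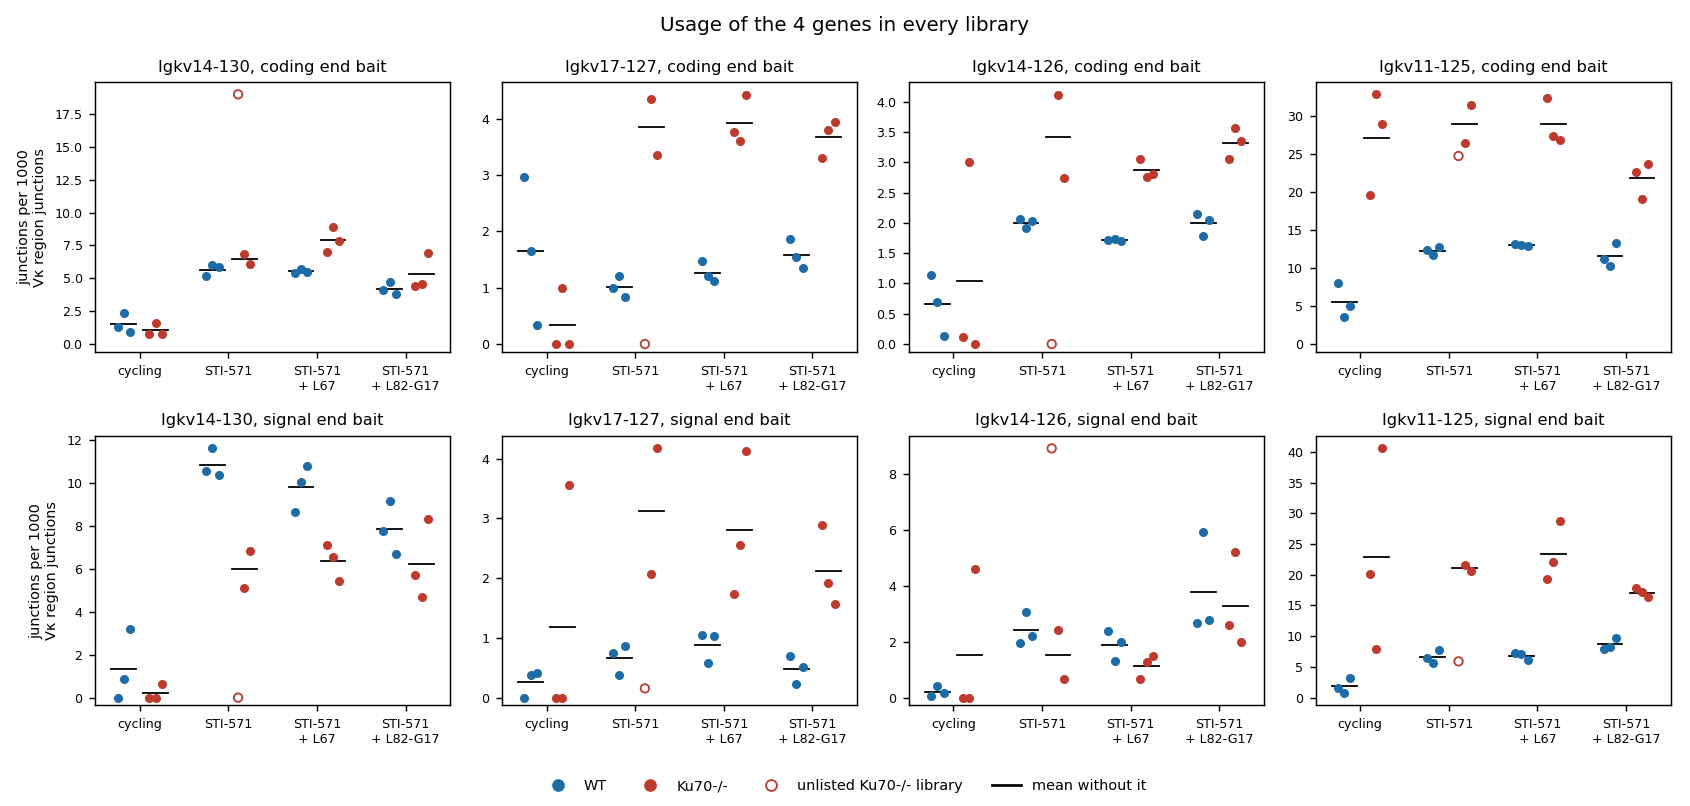
Usage of each gene (y axis, junctions per 1000 Vκ region junctions, a separate linear scale for each panel) by treatment (x axis), with the coding end bait above and the signal end bait below. Each point is 1 library of WT (blue) or Ku70-/- (red) cells, the open point is the unlisted library and the lines are means without it; Igkv11-125 has 11.7 to 12.8 in WT and 26.4 and 31.5 in the listed Ku70-/- libraries with STI-571 alone from the coding end bait.

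Whether arrest changes the part each gene takes of Vκ joining was asked by comparing STI-571 with cycling cells. Igkv14-130 was higher in each arrested than in each cycling WT library. Its coding end usage was 1.29, 2.38 and 0.917 per 1000 in cycling libraries, all below the 5.16 to 6.02 of arrested ones, a log2 difference of 1.96 ± 0.37 (SE) with an adjusted p of 0.0144 by limma over 110 sites. Igkv11-125 rose from 7.97, 3.55 and 4.96, a log2 difference of 1.23 ± 0.32 with an adjusted p of 0.0357. For Igkv14-126 the cycling values of 1.14, 0.696 and 0.136 were also below all arrested ones, but the adjusted p was 0.0884. Igkv17-127 had 2.97, 1.65 and 0.340 in cycling cells, which overlapped the arrested values. Thus 2 of 4 genes passed, counting Igkv14-130, where 32.7% of all sites did. The median difference over the 4 was 1.58 against 0.49 over all sites. Neither gene passed when each distinct junction was counted once, or when any 1 of the 3 arrested WT libraries was left out. The cycling values rested on 4 to 161 junctions a gene. Igkv14-130, Igkv17-127 and Igkv14-126 had 118, 115 and 46 coding joints over all cycling WT libraries. They reached the 50 junctions on average needed for the fit only through the arrested libraries. The call of Igkv14-130 is therefore not read as a result.

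In Ku70-/- cells the coding end comparison with cycling cells called 0 of 4 genes by limma at the adjusted threshold, with or without the unlisted library, where 1.08% and 2.17% of all sites were called. Of all sites 18 of 93 had an unadjusted p under 0.05 with the unlisted library, and 28 of 92 without it. Igkv14-130 was among them with it, and Igkv14-130 and Igkv17-127 were without it. These genes had at most 21 junctions in a cycling library and entered the fits only through the arrested libraries, so that these p-values are not read as results. Igkv11-125 stood out by its level before arrest: cycling Ku70-/- libraries had 19.6, 33.0 and 29.0 junctions of it per 1000, above each cycling WT library, and the arrested listed libraries had 26.4 and 31.5. These cycling values rest on 176 to 230 junctions at only 6 to 8 distinct junctions a library, whose coding joints had lost a median of 35 Vκ bases in each, whereas the other 3 genes had 0 to 21 junctions a library. From the signal end bait 0 of 4 genes were called with all libraries, where 8.60% of sites were, and none of the 4 had an unadjusted p under 0.05. Without the unlisted library 13.8% of sites were called, Igkv14-130 among them, with 5.11 and 6.84 per 1000 in arrested cells and 0, 0 and 3 junctions in the cycling libraries. It entered that fit only through the arrested libraries, and its fitted difference is set by the value added to 0, so that the call is not read as a result. With the value of 10 junctions added and all libraries its difference was -0.96. The difference between genotypes in the effect of STI-571 was called for 0 of 4 genes by limma from the coding end bait, where 6.36% of sites were called with all libraries and 11% without the unlisted one. At an unadjusted p under 0.05 Igkv11-125 differed with all libraries, where 16 of 110 sites did. Without the unlisted one Igkv17-127 differed, where 25 of 109 sites did. Igkv17-127 again entered the fit only through the arrested libraries, so that its p-value is not read as a result.

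Igkv11-125, Igkv17-127 and Igkv14-126 took a larger part of Vκ junctions in Ku70-/- than in WT cells once the unlisted library was left out, and Igkv11-125 also did so when each distinct junction was counted once. With STI-571 alone and the coding end bait, Igkv11-125 had 24.7, 26.4 and 31.5 per 1000 in Ku70-/- libraries, the first being the unlisted one, and all were above the WT range of 11.7 to 12.8. The log2 difference was 1.16 ± 0.20, with an adjusted p of 0.0290 by limma, and 1.23 ± 0.11 with 0.00219 without the unlisted library. Igkv17-127 had 0, 4.34 and 3.35 against at most 1.20 in WT cells. Its log2 difference was 1.94 ± 0.20 with an adjusted p of 0.00321 without the unlisted library, and -0.90 ± 2.50 with it, which was not called. Igkv14-126 had 0, 4.12 and 2.74 against at most 2.06, a log2 difference of 0.75 ± 0.19 with 0.0347 without that library, and -2.03 ± 2.45 with it, not called either. Igkv14-130 had 19.002, 6.86 and 6.07 against 5.16 to 6.02, and was not called either way. The count was 1 of 4 with all libraries, where 7.14% of sites were called, and 3 of 4 without the unlisted library, where 40.7% were. With distinct junctions counted once and the unlisted library left out, an alternative added after the data were seen, Igkv11-125 (1.57 ± 0.12, adjusted p of 0.000206) and Igkv14-130 (0.46 ± 0.11, adjusted p of 0.00961) rose, where 75.2% of sites were called, and Igkv17-127 (0.19 ± 0.18) and Igkv14-126 (0.31 ± 0.13) were not called. Igkv11-125 was not called in the fit with all libraries when any 1 of the 5 others was left out.

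The libraries with ligase inhibitors hold the same genotype comparison without the unlisted library; it was added after the data were seen. With L67, Igkv17-127 had 3.77, 3.61 and 4.43 per 1000 in Ku70-/- and 1.47, 1.20 and 1.13 in WT libraries, 3.11-fold more on average, and a log2 difference of 1.64 ± 0.14 (adjusted p of 0.000269). Igkv11-125 had 32.4, 27.4 and 26.9 against 13.1, 13.1 and 12.8, a log2 difference of 1.15 ± 0.09 (adjusted p of 0.000269). Igkv14-126 had 3.06, 2.77 and 2.80 against 1.72, 1.74 and 1.71, a difference of 0.74 ± 0.07 (adjusted p of 0.000572). Igkv14-130 had 7.01, 8.92 and 7.86 against 5.44, 5.73 and 5.46, a difference of 0.51 ± 0.11 (adjusted p of 0.0112). In these libraries all 4 genes were called higher, where 39.6% of sites were called in either direction. With L82-G17 the calls were Igkv17-127, Igkv14-126 and Igkv11-125, at 1.22 ± 0.15, 0.74 ± 0.11 and 0.92 ± 0.14, where 45.9% of sites were called. Igkv14-130, at 4.42, 4.58 and 6.91 against 4.09, 4.70 and 3.82, was not.

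Together the 4 genes made up 20.5 to 21.5 of every 1000 Vκ junctions in WT and 41.7 to 43.7 in Ku70-/- cells with STI-571 alone from the coding end bait, the unlisted library included. Most of the gain was in Igkv11-125, which ranked 5th of 137 sites in the listed Ku70-/- libraries. From the signal end bait, given as description, Igkv11-125 was also higher in the listed Ku70-/- libraries, at 21.7 and 20.6 against 5.71 to 7.78, and Igkv17-127 at 2.07 and 4.17 against 0.384 to 0.863. Igkv14-130 went the other way, at 5.11 and 6.84 against 10.4 to 11.6, and Igkv14-126 overlapped. In the unlisted signal end library Igkv14-126 had 8.92, Igkv11-125 5.90, Igkv17-127 0.155 and Igkv14-130 0 per 1000.

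From the coding end bait, joints of all 4 genes in WT cells were nearly all of the like kind and close to the break. With STI-571 alone the hybrid share from the coding end bait was 0.0895% to 0.173% for Igkv11-125, 0.0992% to 0.695% for Igkv14-130, 0 to 0.709% for Igkv14-126 and 0 to 2.17% for Igkv17-127. The shares of 0 came from 289 to 746 junctions, which allows up to 1.04% in Igkv17-127 and up to 0.454% in Igkv14-126, limits of 3 counts that cover counting error only. In the listed Ku70-/- libraries it was 21.1% and 18.2% for Igkv11-125, 21.6% and 31.8% for Igkv14-130, 31.2% and 29.3% for Igkv14-126, and 43.7% and 45.4% for Igkv17-127. In the unlisted library it was 95.8% for Igkv11-125 and 9.69% for Igkv14-130. No library of one genotype overlapped the other. On the scale of log2 of like over hybrid joints, all 4 genes fell, by 5.90 ± 1.11 (Igkv14-130) to 9.58 ± 1.79 (Igkv11-125), with adjusted p of 0.000356 to 0.00112 by limma. They fell by 6.48 to 7.41 without the unlisted library, which held no measured share of Igkv17-127 or Igkv14-126. This was general to the locus: 96.4% of sites were called with all libraries, 98.2% without the unlisted one, and 99.1% in each comparison among inhibitor libraries, where all 4 genes were called too. The median over the 4, -7.46, was near that of all sites, -7.79.

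From the signal end bait the hybrid share, which here counts coding preys, was 0.105% to 1.23% for Igkv14-130 and 2.94% to 6.14% for Igkv11-125 in WT cells with STI-571 alone. It was far less even for the less used genes, at 5.43%, 0% and 53.0% for Igkv17-127 and 3.12%, 2.98% and 18.2% for Igkv14-126. Those of Igkv17-127 rest on 126 to 283 junctions and on 4.67 distinct junctions a library on average. In Ku70-/- cells Igkv11-125 had 37.8% and 48.9% in the listed libraries and 0% in the unlisted one, and Igkv14-130 had 21.3% and 14.2%.

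**Figure D2:**
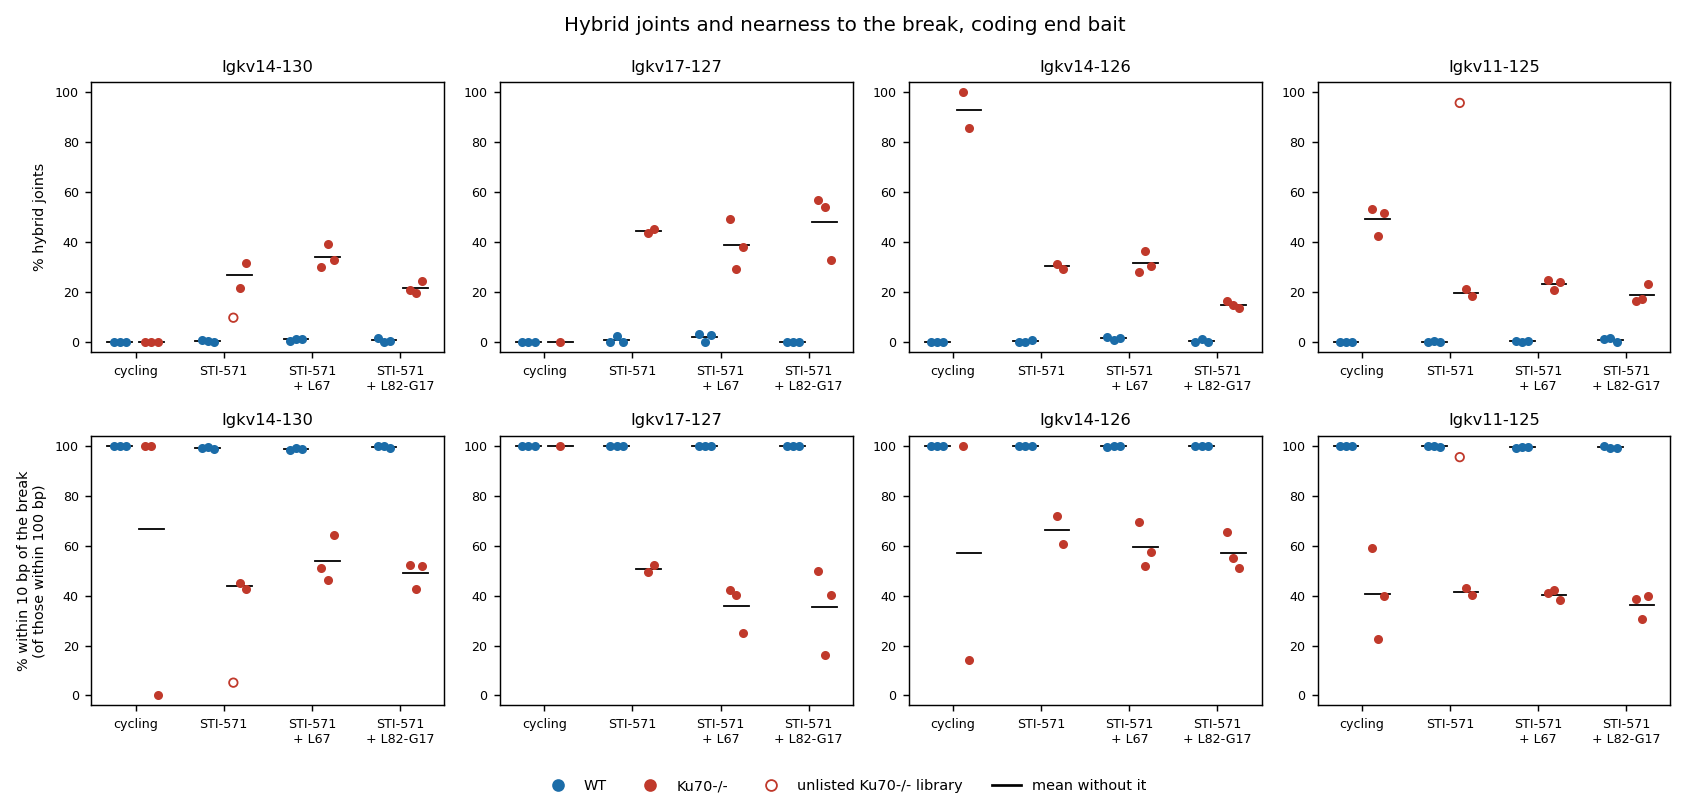
Percent of joints that are hybrid (above) and percent of junctions within 100 bp that lie within 10 bp of the break (below), for each gene and treatment from the coding end bait. Points are libraries of WT (blue) and Ku70-/- (red) cells, the open point is the unlisted library and lines are means without it; WT points lie at the bottom above and near 100 below, and a library with 0 junctions of a gene has no point.

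Loss of bases from the Vκ end was as different. With the coding end bait and STI-571 alone, 99.0% to 100% of the WT junctions of each gene lay within 10 bp of the break, of those within 100 bp. In the listed Ku70-/- libraries these shares were 45.3% and 42.8% for Igkv14-130, 49.3% and 52.2% for Igkv17-127, 71.7% and 60.9% for Igkv14-126, and 42.9% and 40.4% for Igkv11-125. The unlisted library had 5.15% for Igkv14-130 and 95.5% for Igkv11-125, and no junctions of Igkv17-127 or Igkv14-126. All 4 genes fell on the logit scale, by 7.62 ± 1.48 to 8.51 ± 1.17 with adjusted p of 0.000163 to 0.00379 by limma, with differences of -7.23 to -9.25 without the unlisted library. Of all sites 92.0% were called, and 99.1% without the unlisted library. Among inhibitor libraries 98.2% of sites were called with L67 and 99.1% with L82-G17, and all 4 genes fell in both.

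The commonest losses in STI-571-treated WT cells came in the same order in Igkv14-130, Igkv14-126 and Igkv11-125. A loss of 3 bases was also common in Igkv17-127. In WT cells with STI-571 alone, 40.9% of the coding joints of both Igkv14-130 and Igkv11-125 had lost exactly 3 bases, 32.0% of those of Igkv14-126 and 31.3% of those of Igkv17-127. Ends that had lost 1 base were next for Igkv14-130, Igkv14-126 and Igkv11-125, at 19.7%, 29.2% and 18.1%. For Igkv17-127 the untrimmed end led, at 34.7%. It also led with L67, at 37.9% against 30.9% for 3 bases lost, but not with L82-G17, at 33.4% against 42.2%. With STI-571 alone the Jκ1 end was untrimmed in 45.5% to 48.3% of WT member junctions. In Ku70-/- cells the median coding loss over both listed libraries was 12 bases for Igkv14-130, 11 for Igkv17-127, 7 for Igkv14-126 and 14 for Igkv11-125, and the ends that were untrimmed made up 0 to 0.648%. The Jκ1 end had lost a median of 15 bases in both listed libraries, and 1 in the unlisted one.

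From the signal end bait WT joints were mostly exact. The signal end was untrimmed in 96.6% of signal joints of Igkv14-130, 99.4% of Igkv17-127, 99.2% of Igkv14-126 and 97.1% of Igkv11-125. Igkv14-126, with its rare heptamer, lay within the range of its neighbours, in junctions whose pileup placed the sites. In the listed Ku70-/- libraries untrimmed signal ends made up 2.92%, 11.3%, 7.65% and 5.55% in the same order. The Jκ1 signal end was untrimmed in 91.1% to 91.9% of member junctions in WT, and in 4.81% and 7.35% in the listed Ku70-/- libraries.

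**Figure D3:**
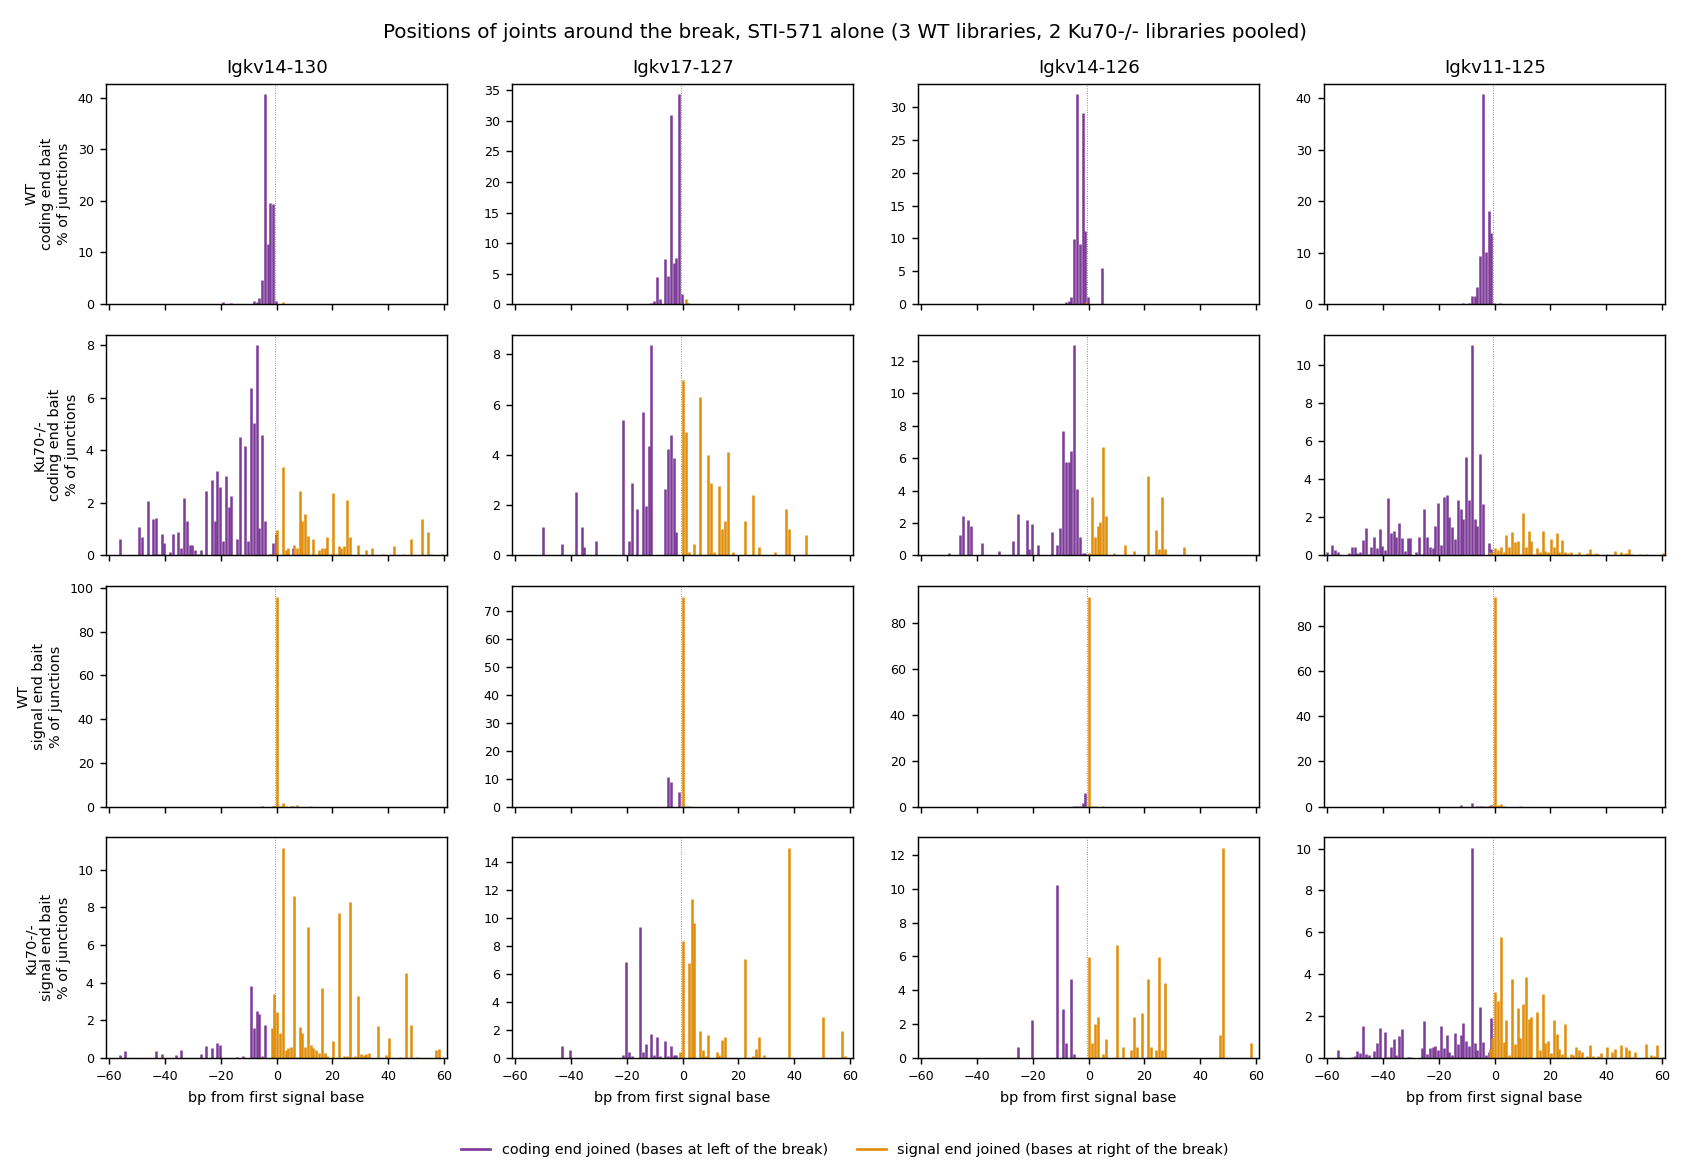
Position of joints around the break of each gene in cells with STI-571 alone. The x axis is the distance in bp of the last prey base from the first signal base, the y axis the percent of the gene's junctions at that position (scales differ between panels), purple bars are joined coding ends and orange bars joined signal ends; WT bars crowd at the break, and Ku70-/- bars of both kinds spread away from it on both sides.

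The commonest WT joint was built the same way in all 4 genes. It lacked 3 Vκ bases and no Jκ1 base and had no inserted base, it was found in 9 of 9 STI-571-treated WT libraries for each gene, and it made up 29.6% of the coding joints of Igkv14-130, 26.5% of Igkv17-127, 26.2% of Igkv14-126 and 27.3% of Igkv11-125. The joints below are written with reference bases, 20 on each side, Vκ first, to show how alike they are.
Igkv14-130: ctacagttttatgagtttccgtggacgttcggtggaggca
Igkv17-127: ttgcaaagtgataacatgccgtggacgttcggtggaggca
Igkv14-126: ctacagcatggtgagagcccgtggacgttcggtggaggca
Igkv11-125: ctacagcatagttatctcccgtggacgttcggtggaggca

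In Ku70-/- cells the joints found in the most libraries made up smaller shares. Over the 8 listed STI-571-treated Ku70-/- libraries, the joint of any kind found in the most of them made up 3.12% of the coding joints of Igkv14-130 (in 7 libraries), 4.57% of Igkv17-127 (5 libraries), 2.19% of Igkv14-126 (6 libraries) and 2.69% of Igkv11-125 (8 libraries). A joint that lacked 4 Vκ and 5 Jκ1 bases and had a 1-bp overlap came next in both Igkv14-130, at 3.07% in 7 libraries, and Igkv14-126, at 5.48% in 5 libraries. Of joints with an overlap over 1 bp, the one in the most libraries made up 1.15% of coding joints in Igkv14-130 (in 6 libraries), 2.08% in Igkv17-127 (3 libraries), 1.73% in Igkv14-126 (3 libraries) and 2.69% in Igkv11-125 (8 libraries). They are shown because they carry the microhomology counted below. Capitals mark the bases that the Vκ end and Jκ1 share, which can be placed on either.
Igkv14-130: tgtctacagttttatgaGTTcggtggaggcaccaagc
Igkv17-127: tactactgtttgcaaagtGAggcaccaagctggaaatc
Igkv14-126: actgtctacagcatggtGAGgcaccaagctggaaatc
Igkv11-125: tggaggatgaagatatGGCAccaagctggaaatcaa

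The Igkv11-125 joint lacks 35 Vκ bases and 16 Jκ1 bases, counting the shared bases as kept by both, and the others lack 6 to 12 Vκ bases and 6 to 14 Jκ1 bases. Coding joints of Igkv11-125 in cycling Ku70-/- libraries had also lost a median of 35 Vκ bases. Whether this joint was present before arrest was not tested. In Ku70-/- cells shared bases were short in all 4 genes: overlaps of 1 bp made up 26.1% to 38.3% of coding joints, of 2 bp 5.57% to 12.1%, and of over 5 bp 0.0993% to 2.10%. The longest was 10 bp, in Igkv14-130.

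The share of joints with an overlap over 1 bp rose in Ku70-/- cells. With the coding end bait and STI-571 alone, Igkv11-125 had 0.217% ± 0.102 (SD, n = 3) in WT and 13.1% ± 0.635 (n = 2) in the listed Ku70-/- libraries, Igkv14-130 0.530% ± 0.345 and 9.88% ± 3.23, and Igkv17-127 0.878% ± 1.07 and 18.9% ± 11.2. Igkv14-126 was the exception in WT cells, with 5.75% ± 0.728 against 10.9% ± 0.0815. Nearly all its WT overlaps over 1 bp were over 5 bp long and include a mismatch, as described below. Its WT share and its differences from WT are therefore not a measure of shared bases alone. With all libraries 2 of 4 genes rose by limma, Igkv17-127 (5.50 ± 1.26 on the logit scale, adjusted p of 0.0114) and Igkv11-125 (4.92 ± 1.22, adjusted p of 0.0133), where 58.9% of sites were called. The value of Igkv17-127 in the unlisted library came from the added counts alone, so that its call is not read as a result. Without the unlisted library all 4 rose, where 94.7% of sites were called, with the smallest difference, 1.01 ± 0.39, in Igkv14-126. That gene was not called (0.36 ± 0.36) when distinct junctions were counted once without that library, and the other 3 rose, where 94.7% of sites were called. Among L67 libraries all 4 rose, where 91.9% of sites were called. Among L82-G17 libraries all but Igkv17-127 rose, where 96.3% were called.

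Of the WT overlaps of Igkv14-126, nearly all those over 1 bp sat at its heptamer, whereas overlaps of 1 bp made up 13.4% of its coding joints. Of its 4897 WT coding joints, 216 had a Vκ alignment that ran 6 bases into the heptamer and an overlap of over 5 bp with the Jκ1 alignment, at 4.96%, 5.90% and 5.43% in the 3 libraries with STI-571 alone, 1.77%, 0.178% and 2.29% with L67, and 4.15%, 9.21% and 8.37% with L82-G17. Overlaps in the other 3 genes were at most 3 bp long in WT cells. The heptamer of Igkv14-126 and the start of Igkj1 share 5 bases, in capitals below (chr6:67846617-67846643 and chr6:70672556-70672575, both on the plus strand), so that a read through them can be aligned to either.
Igkv14-126: cagcatggtgagagccctcccACGTTg
Igkj1: gtggACGTTcggtggaggca
Only 75.6% of the WT overlap joints of Igkv14-126 had the same reference bases on both sides for the whole overlap, against 99.4% to 99.8% in the other genes. Overlaps longer than the 5 shared bases therefore include a mismatch in one of the alignments.

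Direct joints, with neither overlap nor insertion, made up a smaller share in Ku70-/- cells for 3 of the 4 genes in the counts as listed, once the unlisted library was left out. With the coding end bait and STI-571 alone they made up 76.6% ± 0.919 of Igkv11-125 joints in WT and 57.2% ± 2.43 in the listed Ku70-/- libraries, 74.8% and 60.1% in Igkv14-130, 70.8% and 53.3% in Igkv14-126, and 57.0% and 57.3% in Igkv17-127. Only Igkv14-126 fell by limma with all libraries (by 1.15 ± 0.29 on the logit scale, adjusted p of 0.0497), where 19.6% of sites were called. Its value in the unlisted library came from the added counts alone, so that this call is not read as a result. Without the unlisted library Igkv14-130, Igkv14-126 and Igkv11-125 fell, where 69.0% were called. Those 3 genes also fell among L67 libraries, where 64.9% were called, and among L82-G17 libraries, where 79.8% were. This direction did not hold when distinct junctions were counted once: the differences were then 1.17, 0.44 and 0.63 for Igkv14-130, Igkv14-126 and Igkv11-125 with all libraries, none of them called. Without the unlisted library they were 1.63, 0.42 and 1.06, and Igkv14-130 and Igkv11-125 were called higher in Ku70-/- cells (adjusted p of 0.00190 and 0.00191), where 75.2% of sites were called.

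**Figure D4:**
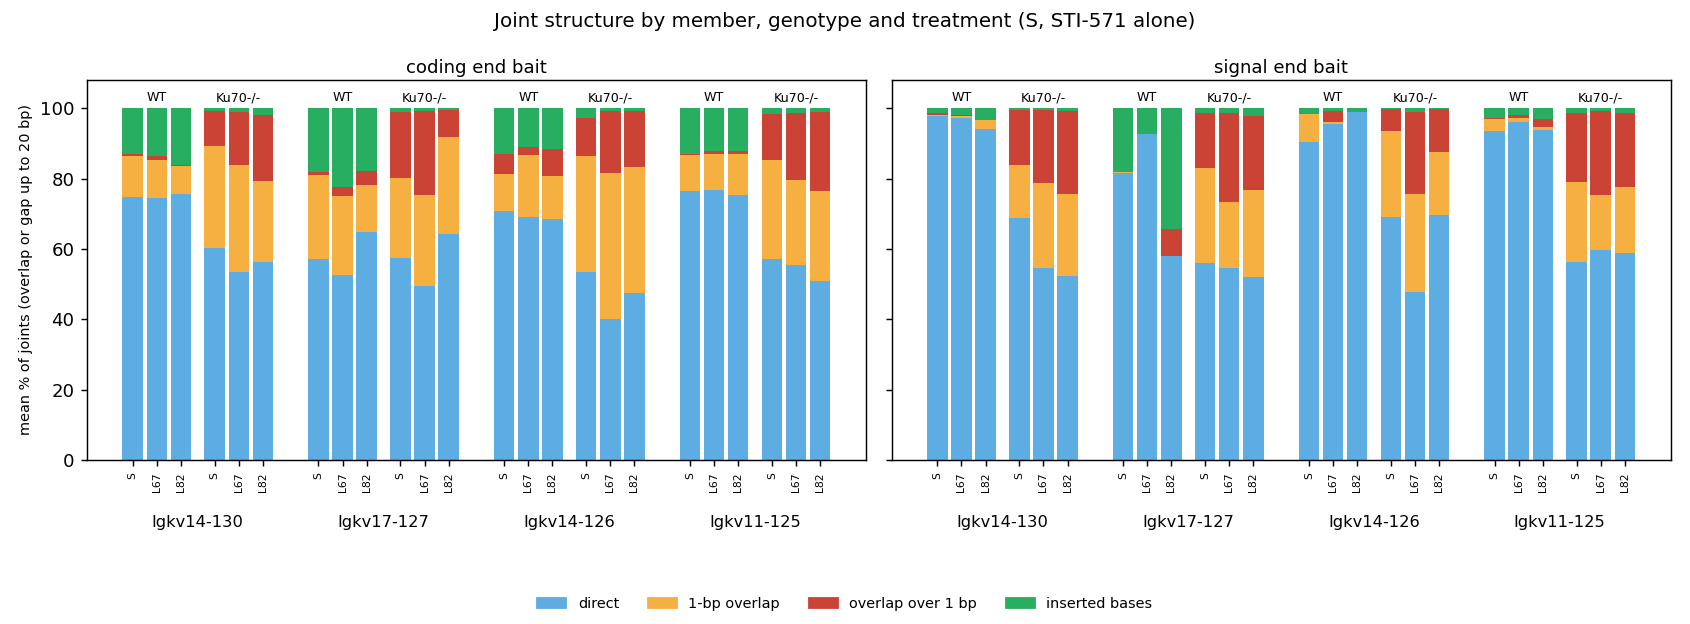
Mean percent of joints that are direct, have a 1-bp overlap, a longer overlap or inserted bases, for each gene, genotype and treatment (S, STI-571 alone; L67; L82, L82-G17), with the coding end bait at left and the signal end bait at right. Bars sum to 100 and the unlisted library is left out; insertions make up 10.9% to 22.5% of WT and 0.510% to 2.76% of Ku70-/- joints from the coding end bait.

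Inserted bases were a feature of WT coding joints. They were in 13.04% of joints of Igkv14-130, 18.2% of Igkv17-127, 12.98% of Igkv14-126 and 13.1% of Igkv11-125 with STI-571 alone, and in 0.814% to 2.76% in the listed Ku70-/- libraries. In WT cells with STI-571 alone the insertion could be read as a palindrome of the Jκ1 end in 62.2% of cases for Igkv14-130, 68.1% for Igkv14-126 and 58.0% for Igkv11-125. GT was the commonest in each, at 33.7% to 36.9%. Insertions are given as read from the bait, on the minus strand, so that GT is AC and T is A on the strand on which the joints above are written. Igkv17-127 differed, with 19.4% Jκ1 palindromes and 29.8% palindromes of its own end, and T as the commonest insertion, at 27.2% of 191. Another 50.8% of its insertions were neither. With L67 it had 18.8% Jκ1 palindromes and 62.0% of its own among 276 insertions, whereas with L82-G17 the Jκ1 palindromes led, at 41.6% against 37.0% of 154. In the other genes Jκ1 palindromes made up 43.4% to 61.8% with L67 and 54.3% to 64.5% with L82-G17. There GT made up 21.3% to 35.4% with L67 and 33.2% to 49.6% with L82-G17.

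The effect of ligase inhibitors on usage was asked within each genotype. In WT cells with L67, 0 of 4 genes were called by limma, where 5.22% of sites were. At an unadjusted p under 0.05 there was 1 of 4 genes, where 30 of 115 sites had one. That gene, Igkv14-126, had 1.72, 1.74 and 1.71 per 1000 against 2.06, 1.91 and 2.04, with a log2 difference of -0.22 and an adjusted p of 0.0607. With L82-G17, Igkv14-130 fell by 0.43 ± 0.11 (adjusted p of 0.0246), at 4.09, 4.70 and 3.82 against 5.16 to 6.02, and Igkv17-127 rose by 0.66 ± 0.18 (adjusted p of 0.0334), at 1.87, 1.54 and 1.34 against 0.835 to 1.20. These are 2 of 4 genes, where 35.7% of sites were called. Neither passed with distinct junctions counted once or with 1 spread taken from all libraries of the bait, and leaving out any 1 of the 6 libraries left at most 1 of them called. The 2 compounds were given at different doses and are not compared with each other.

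In Ku70-/- cells neither compound called any of the 4 genes by limma for usage or end kind, from either bait, with or without the unlisted library. For usage 0% of sites were called in each comparison, except 9.28% for L82-G17 from the coding end bait without that library. For end kind 0% were called in each, except 0.990% for L67 from the coding end bait without it. At an unadjusted p under 0.05 there was 1 of 4 genes in usage, Igkv11-125 with L82-G17 from the coding end bait without the unlisted library. In that fit 31 of 97 sites had such a p. The values of Igkv11-125 there were 22.7, 19.1 and 23.8 per 1000 against 26.4 and 31.5, a log2 difference of -0.41 with a 95% interval of -0.79 to -0.02. In end kind Igkv14-126 with L82-G17 from the coding end bait had an unadjusted p under 0.05 both ways. So had 6 of 96 sites with all libraries and 26 of 97 without the unlisted one. Hybrid shares of Igkv14-126 were 16.5%, 14.7% and 13.5% against 31.2% and 29.3%. Its value in the unlisted library came from the added counts alone, so that its p-value with all libraries is not read as a result. From the signal end bait Igkv11-125 had one without the unlisted library, as had 21 of 100 sites. Its hybrid shares were 29.1%, 15.98% and 24.2% against 37.8% and 48.9%. Without that library like over hybrid joints rose with L82-G17 at 87 of 97 and 84 of 100 sites. In WT cells 0 of 4 genes were called for end kind from the coding end bait by limma, where 0.870% of sites were with L67 and 0% with L82-G17. Igkv14-126 with L67 was the one gene with an unadjusted p under 0.05, where 5 of 115 sites had one. The difference between genotypes in the effect of either compound on usage was called for 0 of 4 genes and 0% of sites. Igkv17-127 with L82-G17 had an unadjusted p under 0.05 without the unlisted library only, where 20 of 112 sites had one.

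For joint structure in Ku70-/- cells each inhibitor was compared with STI-571 alone by exact two-sided permutation tests, in which 3 libraries against 3 cannot give a p below 0.1. Of 64 tests 40 were of this size and 7 of these reached it. The other 24 had 2 libraries with STI-571 alone, since the unlisted library held no junction of the gene, and could not reach it. The smallest p after Benjamini-Hochberg adjustment over the 64 exact tests was 0.610. The widest was Igkv14-126 from the signal end bait with L82-G17, where 15.4%, 17.2% and 16.8% of junctions lay within 10 bp of the break against 100% in the unlisted library and 38.3% and 61.6% in the listed ones. Igkv14-130 from the coding end bait with L82-G17 had 18.8% ± 3.76 of joints with an overlap over 1 bp, against 6.59% ± 6.15 with all libraries and 9.88% ± 3.23 without the unlisted one. Igkv11-125 had 22.3% ± 1.33 with L82-G17 and 18.96% ± 2.90 with L67, against 9.18% ± 6.83, or 13.1% ± 0.635 without the unlisted library. The other tests at this value were all from the coding end bait. Nearness to the break in Igkv14-130 with L67 was 53.8% against 31.1%, or 44.0% without the unlisted library, and in Igkv11-125 with L82-G17 36.4% against 59.6%, or 41.7% without it. Leaving that library out thus cut these differences from 22.7 to 9.76 and from -23.2 to -5.27 percentage points. Insertions in Igkv14-130 with L82-G17 made up 1.83% against 0.926%, or 0.814% without it.

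Across the 16 group means without the unlisted libraries, the sites whose log2 usage was most like that of Igkv14-130 were Igkv1-88, Igkv1-122 and Igkv1-117, with Pearson's r of 0.97, 0.94 and 0.91 among 109 sites. For Igkv17-127 they were Igkv9-124, Igkv17-121 and Igkv8-28 (0.83, 0.82 and 0.80). For Igkv14-126 they were an unannotated break site, Igkv1-117 and Igkv1-132 (0.91, 0.85 and 0.85). Igkv11-125 had the weakest likeness, with 0.66 to each of Igkv3-9, Igkv4-71 and Igkv9-123. None of these lists held another of the 4 genes, and with the unlisted libraries included the site most like Igkv14-130 was Igkv13-84 (r of 0.89). The 16 groups share cells and, for Vκ usage, one denominator, so that these values are a description only.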

How the data were processed

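The deposited files list 1 junction a line with prey position, strand, bait end and alignment coordinates, so that the counts, overlaps and gaps used here were read from other values than a ready-made unit. Before they deposited them, the authors demultiplexed and trimmed NovaSeq reads, took each library down to a fixed number of read pairs and mapped them to mm9 (Bowtie2 is named in the submitters' processing notes) with copies of a junction kept. From these lists, usage was counted per 1000 Vκ region junctions. Joint structure used overlaps or gaps of up to 20 bp, and nearness to the break the junctions within 100 bp. A distinct junction has its own prey position, strand, bait end and gap.

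All 48 libraries were grouped by their labels. limma 3.58.1 (R 4.3.3) was run on all sites with at least 50 junctions on average, on log2 of usage with the value of 1 junction added, log2 of like over hybrid joints with 1 added to each, or logit (base 2) shares, at a Benjamini-Hochberg adjusted p of 0.05. Tables were made with Python 3.11.15, pandas 2.3.3 and scipy 1.17.1. The usage fit was tested on simulated data for Ku70-/- against WT, recovering 100% of sites changed 2-fold or 4-fold over 20 simulated sets, with 1.84% false among its calls. The simulated libraries shared one small spread, were 3 against 3 and held none like the unlisted library, so that this recovery does not apply to the fit with all libraries. Nor does it describe the fit without the unlisted library, which has 2 libraries against 3. No replicates of a group had the same counts within sampling noise, by a chi-square test that takes PCR copies as separate joints and so covers counting error only. Each library came from 2 sequencing runs in like proportion. Alternatives were another window, denominator, filter, added value and spread, distinct junctions, and leaving out each library. The members and lists were chosen with earlier results of these data known. Break sites, genes and sequences were taken from the NCBIM37 genome with GENCODE annotation.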

Additional observations from a re-analysis of the deposited data

How the results depend on the processing

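No paired analysis was made because the labels carry no replicate numbers. The replicate numbers used here follow the order of the samples. Counts below are of the 4 genes called, coding end bait unless named. With distinct junctions counted once, 0 passed for STI-571 against cycling in WT, 1 in Ku70-/-, 0 for L82-G17 in WT and 0 for direct joints. One spread from all libraries of the bait gave 1 for STI-571 against cycling in Ku70-/- and 0 for L82-G17 in WT. No filter on low sites gave 1 for L82-G17, and direct joints taken with 1-bp overlaps gave 0. The share of all sites called is not given for these settings. Cycling Ku70-/- libraries held few distinct junctions of these genes, so that neither count of 1 in Ku70-/- is read as a result. The genotype comparison among L67 libraries, added after the data were seen, gave 4 for usage, 3 for direct joints and 4 for overlaps over 1 bp, and among L82-G17 libraries 3 for usage and 3 for direct joints. Leaving out 1 library at a time gave 0 to 3 for STI-571 against cycling in WT, 0 to 3 for the genotypes' usage, 0 to 1 for L82-G17, 0 to 1 for STI-571 against cycling in Ku70-/- from the signal end bait, 0 to 3 for direct joints and 1 to 4 for overlaps.

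Directions also turned. For usage between genotypes, Igkv17-127 went from -0.90 to 0.19 with the value of 10 junctions added, 1.64 among L67 and 1.22 among L82-G17 libraries, and ran from -2.42 to 1.94 with 1 library left out. Igkv14-126 went from -2.03 to 0.74 among both L67 and L82-G17 libraries, and ran from -3.57 to 0.75. Both genes had 0 junctions in the unlisted library. With distinct junctions counted once and that library left out, also added later, they were at 0.19 and 0.31, and the calls were 2 for usage and 2 for direct joints, these higher in Ku70-/-. With L67 in WT, distinct counting gave 0.069 for Igkv14-130 and -0.057 for Igkv17-127, and Igkv14-130 ran from -0.10 to 0.015. With L82-G17 in WT, distinct counting gave 0.25 for Igkv14-126 and 0.29 for Igkv11-125, and Igkv14-126 was 0.0070 with 10 junctions added and ran from -0.068 to 0.069. Igkv14-130 in Ku70-/- signal end libraries against cycling was -0.96 with 10 junctions added and ran from -1.02 to 3.95. The direct share turned to 1.502 in Igkv14-130 and 0.92 in Igkv11-125 with 1-bp overlaps included, and to 1.17, 0.44 and 0.63 in Igkv14-130, Igkv14-126 and Igkv11-125 with distinct counting, or 1.63, 0.42 and 1.06 without the unlisted library. The cause was not tested. The calls on end kind and nearness to the break held for all 4 genes in each alternative. Cycling libraries held few junctions of these genes, which limits their comparisons.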
